A study of Mus musculus with 2 samples.

Results

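The 10 genes described here encode amphiregulin (Areg) and other secreted factors and processing enzymes tied to tissue repair, out of 23337 gene rows in the deposited table. They were chosen by name: Areg, Hbegf, Tgfa, Spp1, Pdgfb, Pdgfa, Vegfa, Penk, Igf1 and Furin, each of which had 1 row. Counts came from 2 libraries of regulatory T (Treg) cells sorted from the tibialis anterior, quadriceps and gastrocnemius muscles of 8-week-old male mice on a C57BL/6 background that carry a Foxp3-IRES-GFP reporter. Both groups had their muscles injured with cardiotoxin, a snake venom toxin that kills muscle fibres. The IL-33 group received 0.3 ug of recombinant IL-33 in the muscle and the PBS group received PBS, and both were harvested 4 days after injury with 5000 cells taken per library. Each group was 1 library, so nothing measures the spread between mice, no test was possible, and "higher" and "lower" compare these 2 libraries only. Below, "with IL-33" and "with PBS" name the 2 libraries. The labels do not say whether a library came from 1 mouse or a pool.

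Amphiregulin, HB-EGF and TGF-alpha belong to the epidermal growth factor (EGF) family. They are made as membrane-anchored precursors, are released by metalloproteases at the cell surface, and signal through the EGF receptor and its relatives on neighbouring cells. Treg cells that gather in injured muscle are known to make amphiregulin, which acts on muscle progenitor cells, and IL-33 is a cytokine of damaged tissue whose receptor many tissue Treg cells carry. Osteopontin (Spp1), platelet-derived growth factors (Pdgfa, Pdgfb), vascular endothelial growth factor (Vegfa) and insulin-like growth factor 1 (Igf1) act on stromal, vascular and muscle cells. Penk encodes proenkephalin, the precursor of the enkephalin opioid peptides, and Furin encodes a protease that matures many growth factor precursors.

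The IL-33 library held 4080791 counts and the PBS library 1573707, so 1 count equals 0.245 and 0.635 CPM (counts scaled to the same library total). Levels below are CPM with exact Poisson 95% intervals, and ratios are IL-33 over PBS with exact conditional 95% intervals. Both cover counting error only, and reads amplified without molecular identifiers are not independent molecules. A count of 0 allows up to 3 counts, or 0.735 CPM with IL-33 and 1.91 CPM with PBS. The sorted-cell label was met by high levels of the Treg genes Ctla4 (6186 and 6246 CPM) and Ikzf2 (1681 and 1925 CPM), while Foxp3 itself had 40 counts with IL-33 and 1 with PBS. Tgfb1, a cytokine gene that T cells commonly express, had 0 counts and 1 count. Foxp3 and Tgfb1 were singled out after their values were seen, and a count of 0 in this table was read only as a limit on what it lists. Of 9 Treg markers, 1 (Foxp3) was at least 2-fold higher with IL-33 and 8 were within 2-fold. Over all genes that passed the floor set out below, 15.5% were at least 2-fold higher. Foxp3 had a mean of 5.22 CPM over the 2 libraries, and among genes with a mean of 2.5 to 10 CPM this share was 37.2%.

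Of the 10 genes, 7 had at least 5 CPM in a library. Among these, 2 (Hbegf and Penk) were at least 2-fold higher with IL-33, where 15.5% of all 9005 genes over that floor were, and 3 (Spp1, Pdgfb and Tgfa) were at least 2-fold lower, where 16.3% of all genes were. Either call took 31.8% of all genes. Areg and Furin lay within 2-fold. Hbegf, Pdgfb and Tgfa passed the floor only in the library where they were higher, so for them the floor and the call rest on the same value. The same floor was used for all genes. The fold used for these calls is on log2(CPM + 1), which understates differences of low genes. On that scale the median over the 7 genes was 0.57, which is the value of Areg itself, against -0.08 over all genes. With genes at 0 set to their bound both medians kept these values. For the 7 genes this was fixed in advance, as only Hbegf had a 0 and its bound lies above the median. Pdgfa and Vegfa had 0 counts in both libraries and Igf1 stayed under the floor. Shares of called genes depended on level: 68.5% of 1928 genes with a mean of 2.5 to 10 CPM, where Hbegf, Tgfa, Pdgfb and Furin lie, were called in either direction, against 35.3% of 3511 genes from 10 to 50 CPM (Spp1), 10.9% of 2576 genes from 50 to 200 CPM (Penk) and 2.22% of 990 genes above that (Areg).

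**Figure D1:**
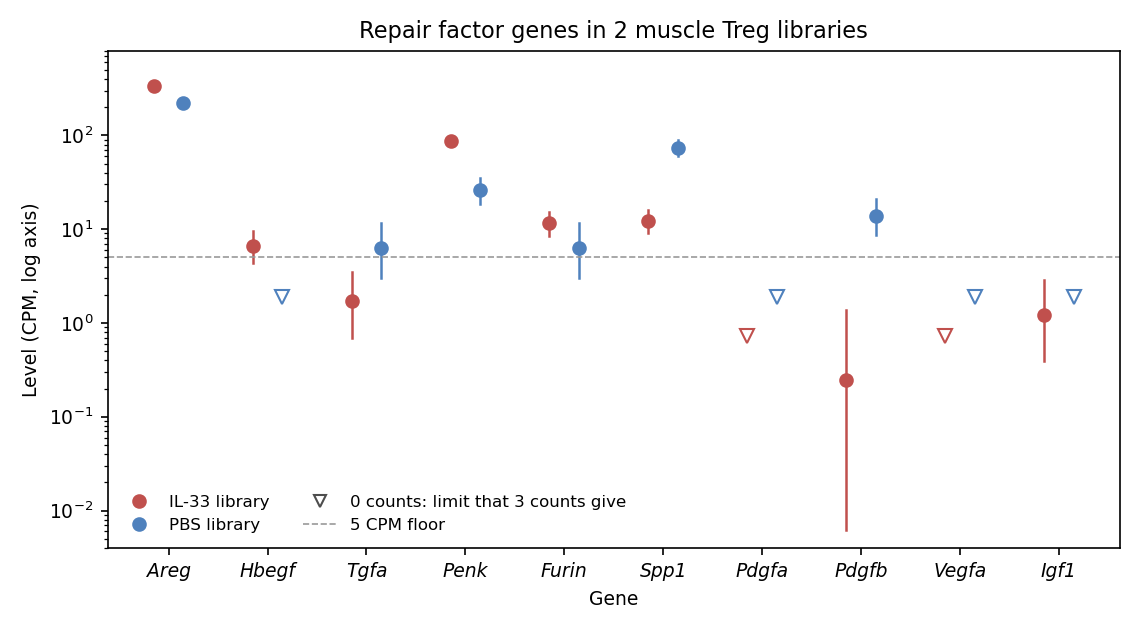
Level of each of the 10 genes with IL-33 (red) and the PBS library (blue), in CPM on a log axis. Points are the measured level, bars the exact Poisson 95% interval, open triangles the limit that 3 counts give where a library had 0 counts, and the dashed line the floor of 5 CPM. Areg is the top gene in both libraries (334.5 and 224 CPM), Penk is higher with IL-33 and Spp1 and Pdgfb with PBS.

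The bases just upstream of the transcription start are shown for Areg and Spp1, the best counted of the genes with an upstream sequence in the RefSeq table used here (7 of the 10 genes had one), because these 2 genes differed in opposite directions between the libraries. Both windows are the 250 bases before the RefSeq start on the plus strand of GRCm38.p6, the assembly that mm10 names, at chr5:91139349-91139598 for Areg and chr5:104434861-104435110 for Spp1. Capitals mark the letters TGACGTCA (those of the cyclic AMP response element, CRE) and TATAAA (those of the TATA box), wherever in the window they lie.
Areg: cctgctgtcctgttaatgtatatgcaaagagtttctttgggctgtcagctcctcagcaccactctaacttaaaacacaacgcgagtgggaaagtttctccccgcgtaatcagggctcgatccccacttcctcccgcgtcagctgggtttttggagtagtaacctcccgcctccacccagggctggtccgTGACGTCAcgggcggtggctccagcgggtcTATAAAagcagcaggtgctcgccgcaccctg
Spp1: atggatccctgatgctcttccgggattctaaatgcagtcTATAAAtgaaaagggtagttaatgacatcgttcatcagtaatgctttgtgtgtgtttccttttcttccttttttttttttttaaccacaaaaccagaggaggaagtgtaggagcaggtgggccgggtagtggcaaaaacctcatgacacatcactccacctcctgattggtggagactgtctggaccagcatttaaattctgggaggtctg
The Areg window held 1 full CRE, from 61 to 54 bases before the start, and 1 TATAAA, from 31 to 26 bases before it. The Spp1 window held no CRE and 1 TATAAA, from 211 to 206 bases before the start. Both strands were searched. Of 32817 such windows in the table, 1.55% held TGACGTCA and 12.4% held TATAAA. The letters TGANTCA (AP-1), found in 6.75% of windows, and TTCNNNGAA (STAT), found in 7.01%, were in neither of the 2. A match describes letters only, and no binding was measured here.

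Among the 10 genes, amphiregulin had the highest level in both libraries. Areg (chromosome 5, 91139599 to 91148432, plus strand, 6 exons) had 1365 counts with IL-33 and 353 with PBS. Its level was 334.5 CPM (317 to 353) against 224 CPM (201.5 to 249). The 2 counting intervals did not overlap, and the ratio was 1.49 (1.33 to 1.68), under the 2-fold call. Among genes above 200 CPM, 1.21% were called higher and 1.01% lower. Per kilobase of annotated exon, a scale on which genes can be compared, Areg stood at 275 CPM per kb with IL-33 and 185 CPM per kb with PBS. That placed it at position 180 of 9990 genes with a count and a known length with IL-33, and 236 of 8854 with PBS. By closeness of log2(CPM + 1) over the 2 libraries, the nearest genes to Areg were Smek2 (327 and 229 CPM, distance 0.043), Nono (324 and 227 CPM, distance 0.049) and Rps27l (325 and 234 CPM, distance 0.072).

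The other EGF family ligands were few. Hbegf, which encodes a ligand of the EGF receptor and ErbB4, had 27 counts with IL-33 (6.62 CPM, 4.36 to 9.63) and 0 with PBS. Set against the limit of 3 counts, it was at least 3.47-fold higher, in a range of levels where 37.2% of genes were called higher. Such a bound takes the count of the other library as it stands. The exact interval of the ratio, which includes that error, started lower, at 2.63 for Hbegf. Tgfa, which encodes TGF-alpha (chromosome 6, 86195223 to 86275719), went the other way, with 7 counts against 10. Its levels were 1.71 CPM (0.690 to 3.53) and 6.35 CPM (3.05 to 11.7), and the ratio was 0.270 (0.0872 to 0.786), where 31.3% of genes of that level were called lower. These 2 differences rest on few counts, and at this depth both genes lie in the range where most genes pass 2-fold. Of the 11 EGF family ligand genes fixed for comparison, 5 (Egf, Ereg, Epgn, Nrg1 and Nrg2) had 0 counts in both libraries and none beyond Areg, Hbegf and Tgfa reached the floor. Areg therefore held 1365 of 1415 ligand counts with IL-33 (96.5%, Wilson 95% interval 95.4 to 97.3) and 353 of 367 with PBS (96.2%, 93.7 to 97.7). Per kilobase its share was 99.2% in both libraries.

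Receptors for these ligands were scarcely counted in the Treg cells themselves. Egfr and Erbb2 each had 4 counts with IL-33 and 0 with PBS, both under the floor, and Erbb3 and Erbb4 had 0 in both. Of 11 genes for EGF receptors and their adaptors and inhibitors, 5 were over the floor and all 5 were within 2-fold. These 5 lie at 10 to 50 CPM, where 35.3% of all genes were called in either direction, or at 50 to 200 CPM, where 10.9% were. The widely used adaptor Grb2 stood at 146 against 206.5 CPM, a ratio of 0.705 (0.615 to 0.809). The ubiquitin ligase gene Cblb stood at 123.5 against 138.5 CPM, with an interval of the ratio (0.759 to 1.05) that held 1.

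Genes for the release of EGF ligands were called in both directions. Adam17, the main sheddase of amphiregulin, was at 40.2 CPM with IL-33 and 43.2 CPM with PBS, a ratio of 0.930 (0.697 to 1.25). Adam10, a related sheddase, was at 184 and 170 CPM (ratio 1.09, 0.943 to 1.25), and Adam19 at 273 and 243 CPM (1.12, 0.998 to 1.26). These 3 were within 2-fold, and at this scaling each interval held 1. Rhbdf2, which encodes iRhom2, a partner that carries ADAM17 to the cell surface, was at least 7.20-fold higher with IL-33, on 56 counts against 0 (lower end of the interval 5.66), in a range where 37.2% of all genes were called higher. Adam9 was lower there, at 10.1 against 58.5 CPM (ratio 0.172, 0.116 to 0.251), and so was Adam8, named after its values were seen, at 41.7 against 119 CPM (0.351, 0.283 to 0.434). In all, 7 genes of this list were over the floor. The partner gene Rhbdf2 was the 1 called higher, while 2 ADAM genes (Adam8 and Adam9) were called lower. The other 4, all ADAM genes, were within 2-fold. Over all genes 15.5% were called higher and 16.3% lower. The median log2 fold was -0.10, against -0.08 over all genes.

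**Figure D2:**
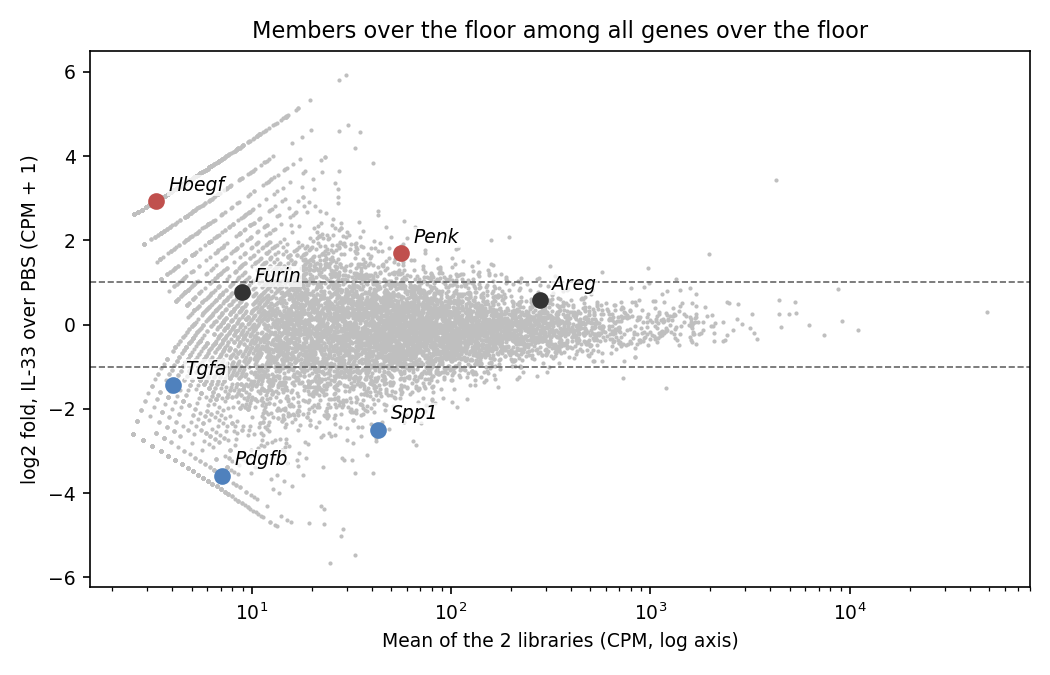
Log2 fold of IL-33 over PBS, on CPM + 1, against the mean level of the 2 libraries in CPM (log axis), for all 9005 genes over the floor (grey) and the 7 repair factor genes over it (red called higher, blue called lower, black within 2-fold). Dashed lines mark 2-fold. The grey scatter widens to the left, where Hbegf, Tgfa, Pdgfb and Furin lie, while Penk and Spp1 sit at better counted levels.

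Of the 10 genes, proenkephalin was the better counted of the 2 called higher with IL-33. Penk (chromosome 4, 4133531 to 4138819, minus strand) had 352 counts with IL-33 and 41 with PBS, or 86.3 CPM (77.5 to 95.8) against 26.1 CPM (18.7 to 35.3). The intervals lay well apart, and the ratio was 3.31 (2.39 to 4.69). Among genes of 50 to 200 CPM, 4.43% were called higher and 6.48% lower. Per kilobase Penk came next after Areg with IL-33 (52.8 CPM per kb), and after Areg and Spp1 with PBS (15.9 CPM per kb). The annotation places 233 exonic bases of A830012C17Rik on the strand opposite Penk. No source used here says whether the counting used strand, so reads of the 2 genes may not be told apart.

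Genes that act on proenkephalin were measured as well. Pcsk1, a convertase of the regulated secretory pathway that cleaves prohormones including proenkephalin, was higher with IL-33, at 45.8 against 16.5 CPM (187 and 26 counts, ratio 2.77, 1.83 to 4.36). Among genes of 10 to 50 CPM, 15.8% were called higher. Pcsk2, another of the convertase genes compared here and named after its values were seen, had 0 counts in both libraries. Cpe, the carboxypeptidase that trims such peptides after cleavage, had 19.4 and 12.7 CPM, and the interval of its ratio of 1.52 (0.923 to 2.63) held 1. The gene of the delta opioid receptor, Oprd1, had 1 count in each library, and Oprm1 and Oprk1 had 0 in both. Of the 11 opioid genes, 3 were over the floor. Penk was called higher, and Cpe and Ctsl were within 2-fold, beside 15.5% called higher over all genes.

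Furin, by contrast, did not differ beyond counting error. Furin (chromosome 7, 80388585 to 80405436, minus strand) had 47 counts against 10, or 11.5 CPM (8.46 to 15.3) against 6.35 CPM (3.05 to 11.7). The intervals overlapped, and the ratio of 1.81 had an interval from 0.904 to 4.02, which holds both 1 and more than 2-fold. An antisense gene, Gm44851, shares 118 exonic bases with it. Other convertases of broad expression were at similar or lower levels with IL-33: Pcsk7 was at 46.6 and 51.5 CPM (ratio 0.905, 0.694 to 1.19), and Mbtps1 at 43.4 and 68.0 CPM (0.638, 0.499 to 0.819). Of 8 convertase genes 4 were over the floor, with Pcsk1 called higher and 3 within 2-fold, beside 15.5% called higher over all genes. Pcsk2 and Pcsk6 were at 0 in both libraries.

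Among the 10 genes, osteopontin had the best counted difference towards the PBS library. Spp1 (chromosome 5, 104435118 to 104441050, plus strand) had 50 counts with IL-33 and 116 in the shallower PBS library, or 12.3 CPM (9.09 to 16.2) against 73.7 CPM (60.9 to 88.4). The PBS level was 6.02 times the IL-33 level (4.28 to 8.56), and the intervals did not come near each other. Among genes of 10 to 50 CPM, 19.5% were called lower. Per kilobase Spp1 stood at 7.43 CPM per kb with IL-33, at position 3965 of 9990 genes, and at 44.7 CPM per kb with PBS, at position 1041 of 8854. A gene model on the same strand, Gm42793, shares 309 exonic bases with Spp1. In sorted bulk cells, a change in the share of cells that carry a transcript and a change in its level per cell cannot be told apart. This holds for Spp1 and for every other gene described, above and below.

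Receptors of osteopontin were well counted in both libraries. Cd44 stood at 669.5 and 707 CPM (ratio 0.947, 0.883 to 1.02). Itgb1, the beta-1 integrin chain, was at 426 and 280 CPM (1.52, 1.37 to 1.69), and Itgav, the alpha-V chain, at 180 and 235 CPM (0.765, 0.674 to 0.869). Of the 8 receptor genes 5 were over the floor and all 5 were within 2-fold, with a median log2 fold of 0.15. Few genes of such levels were called: 10.9% at 50 to 200 CPM and 2.22% above 200 CPM, in either direction, against 31.8% over all genes.

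Spp1 is also known from macrophages and stromal cells, and markers of these cells were counted beside it. All 17 monocyte and macrophage markers were in the table and 4 were over the floor. Of these, 0 were called higher, 1 (Ms4a7) lower and 3 within 2-fold, beside 15.5% higher and 16.3% lower over all genes. The summed level of all 17 was 2933 CPM with IL-33 and 2054 CPM with PBS. Most of it came from the chemokine receptor gene Ccr2 (2886 and 1987 CPM), which tissue Treg cells also express. Without Ccr2 the sum was 46.8 and 67.4 CPM, of which Lyz2 made 19.1 and 38.8 CPM. The Lyz2 ratio was 0.493 (0.348 to 0.701), and Lyz2 was within 2-fold only on log2(CPM + 1). Cd68, Fcgr1, Gpnmb and Arg1 were at 0 in both libraries, and Csf1r had 1 count in each. The markers that follow were picked after their values were seen. Ms4a7 had 0 counts against 25, in a range of levels where 31.3% of genes were called lower. Itgam had 66 against 12 (ratio 2.12, 1.14 to 4.31) and was within 2-fold on log2(CPM + 1). Mrc1 (17 against 0), Trem2 (9 against 0) and C1qc (9 against 1) stayed under the floor, and the intervals of the Trem2 and C1qc ratios held 1. Fibroblast markers were 41 counts with IL-33 and 163 with PBS over 8 genes, or 10.1 and 104 CPM. Of the 4 over the floor 3 were called lower, beside 16.3% over all genes. Col3a1 had 0 counts against 78, Postn 0 against 32 and Dcn 0 against 24 (the last pair named after their values were seen), and Fn1 stood at 10.1 against 17.2 CPM. At 10 to 50 CPM, where Col3a1 and Postn lie, 19.5% of genes were called lower, and 31.3% at 2.5 to 10 CPM (Dcn). Col1a1, Col1a2 and Lum were at 0 in both. The part of such cells in the Spp1 difference was not tested.

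The transcript of platelet-derived growth factor B was also lower with IL-33. Pdgfb (chromosome 15, 79995874 to 80014977, minus strand) had 1 count with IL-33 and 22 with PBS, or 0.245 CPM (0.00620 to 1.37) against 14.0 CPM (8.76 to 21.2). The ratio was 0.0175, with an interval from 0.000425 to 0.108. In this range of levels 31.3% of genes were called lower. Pdgfa (chromosome 5, 138976014 to 138997370) had 0 counts in both libraries. Of the receptor genes, Pdgfra had 0 counts against 2 and Pdgfrb had 0 in both, and Pdgfc and Pdgfd were at 0. Pdgfb is known from endothelium and platelets. Of 6 endothelial markers, 4 (Kdr, Vwf, Tie1 and Egfl7) were at 0 in both libraries, and the sum was 49.3 and 52.1 CPM. Most of it came from Pecam1, which T cells also express, at 48.5 and 45.1 CPM. Without Pecam1 the sum was 0.735 CPM with IL-33 and 6.99 CPM with PBS, all of it from Cdh5. Cdh5 had 3 counts against 11 (ratio 0.105, 0.0188 to 0.398) and was called lower, in a range where 31.3% of genes were. Of 5 platelet markers, Pf4 had 20 counts against 17 (4.90 and 10.8 CPM, ratio 0.454, 0.226 to 0.922). Pf4 was called lower too, in the same range of levels, where 31.3% of genes were. The other 4, Ppbp among them, were at 0. The part of these cells in the Pdgfb difference was not tested.

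Vegfa and Igf1 were at or near the limit of detection. Vegfa (chromosome 17, 46016993 to 46032369), the main growth factor of new vessels, had 0 counts in both libraries, which allows up to 0.735 and 1.91 CPM. The VEGF receptor genes Flt1 and Kdr were also at 0 in both. Nrp1, a co-receptor of VEGF and a known marker of Treg cells, was by contrast at 509 and 583 CPM (ratio 0.872, 0.806 to 0.944) and was the only one of 10 VEGF family genes over the floor. Igf1 (chromosome 10, 87858265 to 87937042), a growth factor of muscle regeneration, had 5 counts against 0, or 1.23 CPM (0.398 to 2.86), below what 0 counts allow with PBS, so no direction was detectable at this depth.

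Receptors of the insulin-like growth factors were better counted. Igf1r stood at 56.4 against 94.0 CPM, a ratio of 0.599 (0.485 to 0.742). Igf2r was at 28.7 and 35.6 CPM, with an interval of the ratio (0.581 to 1.13) that held 1. Insr, the insulin receptor gene, was higher with IL-33 with 79 counts against 2 (ratio 15.2, 4.08 to 128). Igfbp4, a binding protein gene, had 1 count against 11 (ratio 0.0351, 0.000815 to 0.241). Of 10 genes of this axis 5 were over the floor, 1 called higher, 1 lower and 3 within 2-fold, beside 31.8% called in either direction over all genes. Igfbp4 lies at 2.5 to 10 CPM, where 68.5% were.

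**Figure D3:**
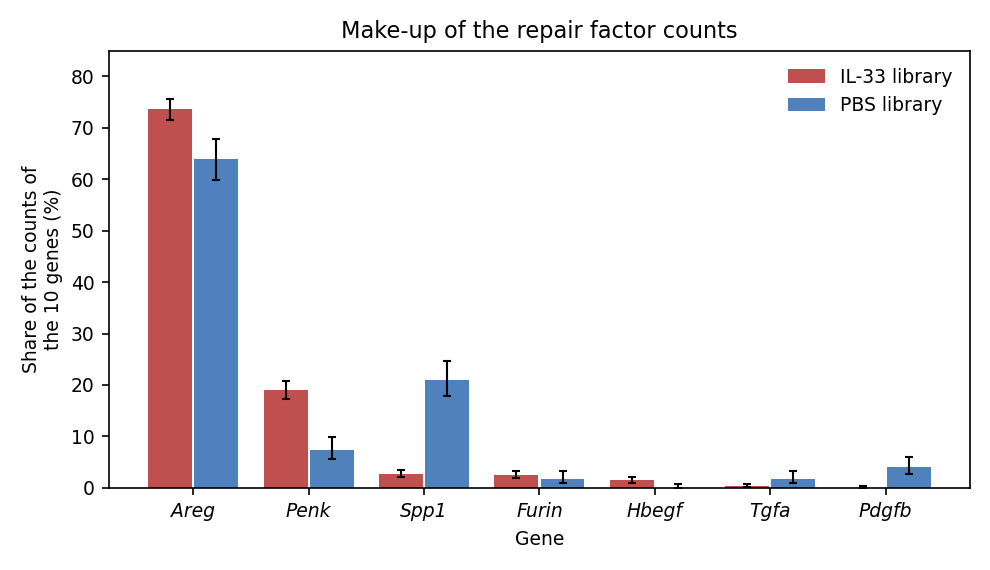
Share of the summed counts of the 10 genes (1854 with IL-33, 552 with PBS) that each gene took, in percent, with Wilson 95% intervals as bars. Genes with less than 1% in both libraries are left out. Areg takes most counts in both, while Penk (19.0% against 7.43%) and Spp1 (2.70% against 21.01%) swap order.

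The make-up of the summed counts differed. Together the 10 genes took 454 CPM with IL-33 and 351 CPM with PBS. Areg made 73.6% of these counts (71.6 to 75.6) with IL-33 and 64.0% (59.9 to 67.8) with PBS. Penk made 19.0% (17.3 to 20.8) against 7.43% (5.52 to 9.92), and Spp1 2.70% (2.05 to 3.54) against 21.01% (17.8 to 24.6). For these 3 genes the intervals did not overlap between the libraries. On the per-kilobase scale the shares were 81.3% and 73.8% for Areg, 15.6% and 6.37% for Penk, and 2.196% and 17.9% for Spp1. Per kilobase the IL-33 order was Areg, Penk, Spp1, Hbegf, Furin, Tgfa, Igf1 and Pdgfb, and the PBS order was Areg, Spp1, Penk, Pdgfb, Tgfa and Furin. In the IL-33 library Hbegf (1.37 CPM per kb) and Furin (1.25 CPM per kb) were close neighbours, as were Tgfa (0.979 CPM per kb) and Furin (0.692 CPM per kb) with PBS, on 10 counts each.

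Beyond the 10 genes, 20 other secreted factors of repair were compared, of which 10 were over the floor. Of these, 0 were called higher, 3 were called lower and 7 were within 2-fold, beside 15.5% higher and 16.3% lower over all genes. Their median log2 fold was -0.41, or -0.41 with genes at 0 set to their bound, against -0.08 over all genes. Lgals1, which encodes galectin-1, was the best counted, at 2105 against 1272 CPM (ratio 1.66, 1.58 to 1.74). Il10, the suppressive cytokine gene, was level at 195 and 198 CPM (0.988, 0.866 to 1.13). The lower genes were Lif, a cytokine that acts on muscle progenitors, with 0 counts against 23 (at least 19.9-fold lower, interval from 14.9), Tgfb3 with 0 against 13 (at least 11.2-fold lower, interval from 7.90) and Osm, of the same cytokine family as Lif, with 16 against 21 (ratio 0.294, 0.143 to 0.591). Osm was named after its values were seen. All 3 had few counts and lie at 2.5 to 10 CPM, where 31.3% of all genes were called lower.

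**Figure D4:**
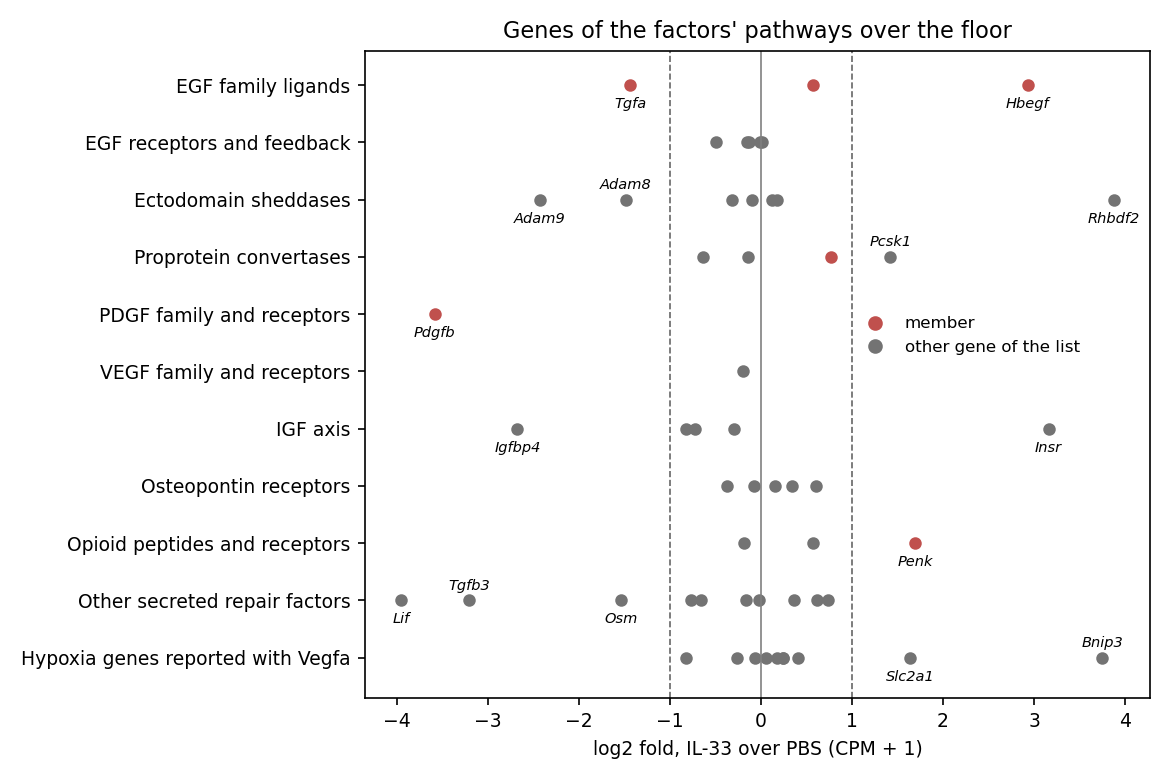
Log2 fold of IL-33 over PBS, on CPM + 1, of every gene over the floor in 11 lists built around the repair factors. Red points are the repair factor genes themselves, grey points the other genes of each list, and dashed lines 2-fold; genes past 2-fold are named. The genes over the floor of the EGF receptor and feedback list and of the osteopontin receptor list all lie within 2-fold, while Rhbdf2, Pcsk1 and Insr lie past it on the right and Adam8, Adam9 and Igfbp4 on the left. Over all genes over the floor, 31.8% lie past 2-fold in either direction, with smaller shares at higher levels.

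Markers of the remaining cell types were low or shared with T cells. The 9 dendritic cell markers summed to 47.0 CPM with IL-33 and 121 CPM with PBS, led by Ccr7 (30.6 and 89.0 CPM) and Xcr1 (10.3 and 7.63 CPM), with Flt3, Clec9a, Cd209a and Cd74 at 0 in both. Of the 4 over the floor 3 were called lower: Ccr7, and, named after their values were seen, H2-Ab1 (7 counts against 19) and Itgax (0 against 19). Over all genes 16.3% were called lower, 6.48% at 50 to 200 CPM (Ccr7) and 31.3% at 2.5 to 10 CPM (H2-Ab1 and Itgax). Neutrophil markers summed to 81.1 and 55.9 CPM, led by Mmp9 (62.5 and 23.5 CPM) and Cxcr2 (14.2 and 26.7 CPM), with S100a8 and S100a9 at 0 in both. Of the 3 over the floor, Mmp9 was called higher (ratio 2.66, 1.88 to 3.86) and 2 were within 2-fold. At 10 to 50 CPM, where Mmp9 lies, 15.8% of genes were called higher. B cell markers summed to 32.3 and 26.7 CPM, nearly all from Cd79b (29.7 and 23.5 CPM). Markers of group 2 innate lymphoid cells, which can also make amphiregulin, summed to 258 and 313 CPM. Gata3, which Treg cells share, made 248.5 and 313 CPM of this, Il17rb had 29 counts against 0 and Il5, named after its values were seen, 10 against 0, and Il13, Calca and Hs3st1 were at 0 in both. Of the 2 over the floor, Il17rb was called higher, in a range of levels where 37.2% of genes were, and Gata3 was within 2-fold. Without Gata3 the sum was 9.56 CPM with IL-33 and 0 with PBS. Mast cell markers (Kit and Cpa3 among them) were at 0 throughout, NK cell markers had 3 and 4 counts in all (Prf1 2 and 4, Eomes 1 and 0), and of 8 muscle and satellite cell markers all but Acta1 (1 and 2 counts) were at 0, Pax7 included. The part of any of these cells in the differences above was not tested.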

How the data were processed

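The authors deposited 1 table of gene-level raw counts for 2 libraries, whose columns were tied to the samples by title. Per the submitters' processing notes, reads were handled with mm10, Cufflinks 2.2.1 and TopHat2 2.0.10. Not given in the sources used here are the counting program, its annotation and its use of strand. Per the labels' protocols, poly(A) RNA was amplified as cDNA, cut with a transposon and read as paired 25 bp ends.

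Counts were divided by the library total to give CPM. Genes that reached 5 CPM in either library were called at 2-fold on log2(CPM + 1). With 1 library per group no test was made. Exact Poisson, conditional Clopper-Pearson and Wilson 95% intervals cover counting error only. Lengths are unions of exons in GENCODE M21 (GRCm38). The 10 genes, 11 pathway lists (115 symbols, all in the table) and 12 marker lists (89 of 90 in the table) were chosen with earlier results of these data known. Named beside the 10 genes were, per pathway list, up to 2 genes farthest from 0 and up to 2 with the highest mean CPM, fixed receptor and sheddase genes, the 2 highest markers of each cell type and the 3 genes nearest to Areg. A gene that this rule takes is not reported here. Some of the genes at 0 in both libraries are also given by name, to help account for their lists. Alternatives were other scalings, pseudocounts, thresholds, floors and lengths. The functions were tested on simulated data. Python 3.11.15 (numpy 2.4.6, pandas 2.3.3, scipy 1.17.1, matplotlib 3.10.9) were used, and edgeR 4.0.16 under R 4.3.3 gave the scaling factors.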

Additional observations from a re-analysis of the deposited data

How the results depend on the processing

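Depth limits most of these genes: with a floor of 20 CPM only 3 of them remain (Areg, Penk and Spp1), of which 1 is called higher (Penk) and 1 lower (Spp1). A pseudocount of 5 CPM or a threshold of 3-fold leaves Tgfa uncalled, a threshold of 1.5-fold adds Furin to the higher genes, and with no floor Igf1 is counted as higher on its 5 counts. Scaling by TMM multiplies every ratio by 1.087 (0.12 on the log2 scale), upper-quartile scaling by 1.071 and leaving the 10 highest genes out of the totals by 1.028. Under these 3 scalings the ratios of Areg, Hbegf, Tgfa, Spp1, Pdgfb, Penk and Furin kept their direction and stayed inside their counting intervals, whereas a ratio between 0.920 and 1, such as that of Cd44 (0.947), changes side under TMM. The order per kilobase did not change with the longest transcript as length. No paired analysis was possible because each group is 1 library.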

Other observations

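Genes of the response to low oxygen, which Vegfa commonly accompanies, were compared because Vegfa itself was at 0. All 10 genes of this list were over the floor, with 2 called higher and 0 lower, beside 15.5% and 16.3% over all genes. The median log2 fold was 0.21, against -0.08 over all genes. Hif1a, the oxygen-regulated transcription factor gene, stood at 1033 CPM with IL-33 and 996 CPM with PBS (ratio 1.04, 0.979 to 1.10), and Ldha, the lactate dehydrogenase gene, at 925 and 816.5 CPM (1.13, 1.06 to 1.21). Bnip3, a mitophagy receptor gene, was at least 6.56-fold higher with IL-33, on 51 counts against 0 (lower end of the interval 5.14). The glucose transporter gene Slc2a1 had 146 against 17 (ratio 3.31, 2.00 to 5.84). Of all genes at 2.5 to 10 CPM, where Bnip3 lies, 37.2% were called higher, and of those at 10 to 50 CPM (Slc2a1) 15.8%.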
